A study of Mus musculus with 4 samples.

Results

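PPARG, the liver X receptors (LXRs) and the proteins that move cholesterol out of macrophages were followed through 10 genes, the receptors Pparg, Nr1h3, Nr1h2 and Rxra, the exporters Abca1 and Abcg1, the ester hydrolases Lipa and Nceh1, and the lysosomal cholesterol carriers Npc1 and Npc2. The 10 were taken by symbol from the 32285 genes of the matrices, and all 10 were detected in every library. They were measured in macrophages of perigonadal white adipose tissue, sorted as live CD45+Lin-CD11b+CD64+ cells, by 10x Genomics 3′ single-cell RNA sequencing. The 4 groups were control mice (WT) and BLIMP1 conditional knockout mice (CKO), fed either high-fat food (high-fat diet, HFD) or food labelled as normal diet (ND), with 1 library per group. BLIMP1 is a transcriptional repressor encoded by Prdm1. The driver of the deletion, the exons removed, the number, sex and age of the animals and the length of feeding are unknown from the labels and file headers.

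PPARG and the LXRs are nuclear receptors that bind DNA together with RXR. PPARG responds to fatty acid ligands and favours lipid uptake and storage, and LXRs respond to oxysterols, which are oxidised forms of cholesterol, and induce the exporters that hand cholesterol to lipoproteins. In fat tissue, macrophages take up lipid released by adipocytes and dead cells, break down its esters in the lysosome and the cytosol, and can store or export the cholesterol.

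No comparison here has a replicate library, so differences are given by size, without a test or p-value. Every interval in brackets is a 95% interval for counting error only (exact Poisson for levels, exact binomial for ratios and shares) and says nothing about animals or preparations. Cells with at least 500 UMIs (unique molecular identifiers, 1 for each captured RNA molecule), 300 genes and at most 10% mitochondrial UMIs were kept, which left 4650 cells in HFD WT, 8731 in HFD CKO, 3705 in ND WT and 4302 in ND CKO. HFD WT stood apart in depth, with a median of 14492.5 UMIs per cell against 3923 to 4092 in the other libraries, and in the number of cells removed for mitochondrial RNA, 400 of 5054 deposited against 7, 23 and 23 in HFD CKO, ND WT and ND CKO. Because of the difference in depth every cell was thinned to 2000 UMIs, and 67, 1076, 675 and 820 shallower cells were left out in the same order. Any 2 libraries shared 2 to 9 cell barcodes. Levels are UMIs per 1000000 UMIs summed over the thinned cells (CPM), and a difference is called by size, at over 1.5 times in either direction among genes with at least 10 CPM in the higher library. Marker genes of macrophages (9 of 9, such as C1qa and Csf1r) were detected in every library, with a summed level of 4129 to 10641 CPM, while the 12 lymphoid markers summed to 39.4 to 64.9 CPM. Prdm1 itself was at 22.2 CPM in HFD WT, 21.5 in HFD CKO, 28.6 in ND WT and 35.3 in ND CKO, so its 3′ tags were not lower in the knockout libraries. Tags outside the deleted exons do not check a deletion.

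Under HFD the knockout library held less Pparg, Lipa and Nceh1 RNA than the control library, and no member was over 1.5 times higher. These 3 of 10 members stand against 21.2% of 7878 genes that were over 1.5 times lower and 5.85% that were over 1.5 times higher in the same comparison. Markers of macrophage states differed between the same 2 libraries: the 10 of lipid-associated macrophages summed to 6980 CPM in HFD WT and 4352 in HFD CKO, the 10 of resident macrophages to 3705 and 5868, and the 10 of monocyte-derived cells to 5547 and 9150. Trem2 itself was at 326.8 and 209.2. Ccr2, which is among the monocyte-derived markers, went against their sum, at 855.4 and 682.6. With Trem2, Lyve1, Ccr2 and remaining cells weighted equally, CKO over WT was 0.367 for Pparg, 0.617 for Lipa and 0.511 for Nceh1. With a mitochondrial limit of 5% in place of 10%, it was 0.302, 0.556 and 0.416. Under ND, none of the 9 members that reached 10 CPM differed by over 1.5 times between genotypes, where 1.27% of all genes were higher and 1.12% lower by that size. The make-up of the cells also differed between diets. A Trem2 UMI was held by 35.3% of cells in HFD WT and 24.1% in HFD CKO, against 6.83% in ND WT and 7.27% in ND CKO. Markers of lipid-associated macrophages summed to 2613 CPM in ND WT and 2101 in ND CKO. Between diets in WT, Nr1h3, Nceh1 and Lipa were higher under HFD and Abca1 was lower, against 13.8% of all genes higher and 29.9% lower. Between diets in CKO, Nr1h3 was higher and Abca1 and Pparg were lower, against 13.2% and 46.4%. TMM scaling, which assumes that most genes do not change, moved these shares of higher and lower genes to 12.2% and 10% for CKO over WT under HFD, 22.4% and 17.6% for HFD over ND in WT, and 27.4% and 23.4% for HFD over ND in CKO. Under it Lipa (1.82) and Npc2 (1.52) were also over 1.5 times higher in the last comparison. With Trem2, Lyve1, Ccr2 and remaining cells weighted equally, HFD over ND in WT was 2.35 for Nr1h3, 1.62 for Lipa and 1.69 for Nceh1. In CKO it was 1.56 for Nr1h3. The comparisons share libraries: each library enters 2 of the 4, so they are not independent of each other.

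**Figure D1:**
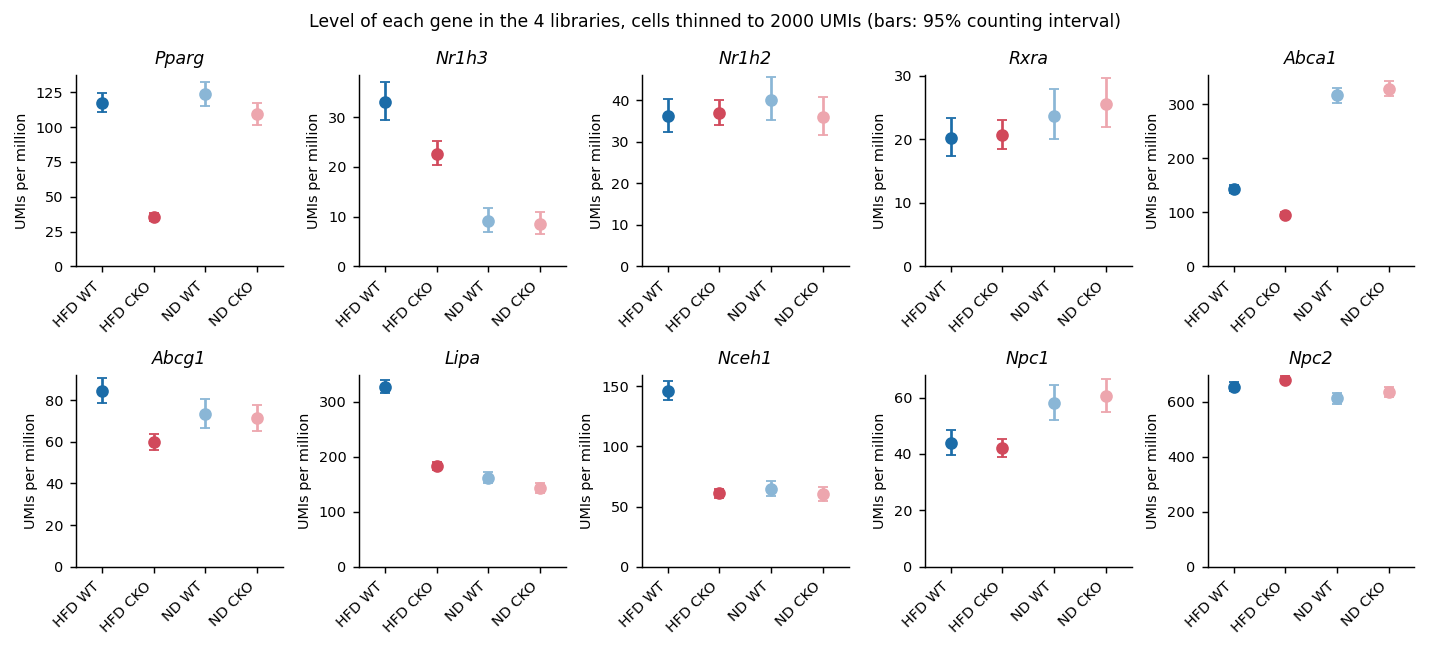
Level of each of the 10 genes in CPM (vertical axes, each from 0) in the 4 libraries, with cells thinned to 2000 UMIs. Points are libraries and bars are 95% counting intervals. Pparg is lowest in HFD CKO at 35.5 CPM, Lipa and Nceh1 are highest in HFD WT at 326.8 and 146.5 CPM, and Abca1 is at 316 CPM or more under the normal diet and at 142.5 CPM or less under the high-fat diet.

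The share of all genes called lower followed gene length in 3 of the 4 comparisons, which bears on the longest members. In CKO over WT under HFD, the median ratio was 1.10 for the shortest of 5 equal groups of genes by genomic span and 0.647 for the longest, and in HFD over ND in CKO it was 1.30 and 0.413. In CKO over WT under ND the same 2 medians were 1.00 and 1.03. The labels and headers do not say if reads in introns entered the counts, and what lies behind the trend was not tested. Pparg (129.4 kb), Abca1 (129.1 kb), Nceh1 (101.6 kb) and Rxra (86.5 kb) belong to the longest of these span groups, so their ratios are set beside its median.

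**Figure D2:**
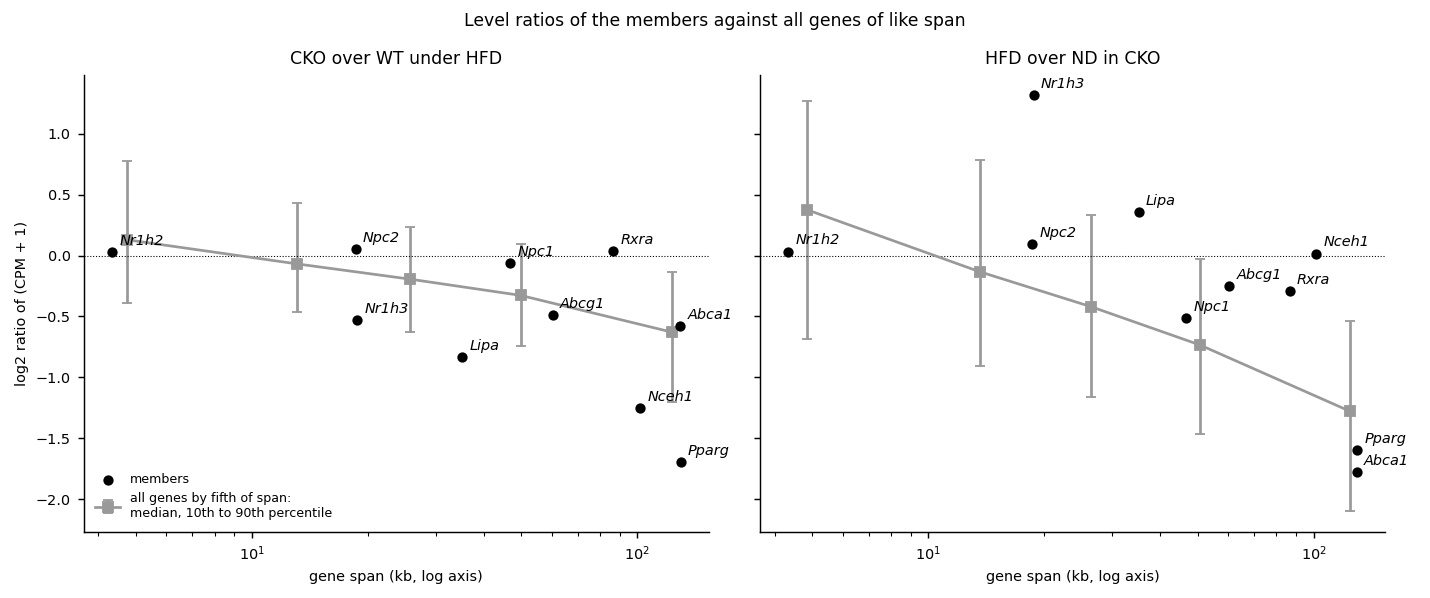
Log2 ratio of (CPM + 1) against gene span in kb (log axis) for CKO over WT under HFD (left) and HFD over ND in CKO (right). Grey squares are medians of all genes in each of 5 groups by span, with bars from the 10th to the 90th percentile, and black points are the 10 members. On the left Pparg, Nceh1 and Lipa lie under the bars of their span groups, Rxra lies above its bar and Abca1 lies next to the median of its group. On the right Pparg and Abca1 lie within the bar, while Nr1h3, Lipa, Nceh1 and Rxra lie above the bars of their groups.

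Pparg (ENSMUSG00000000440, GRCm38 chromosome 6, 115360951 to 115490399, plus strand) is the fatty acid receptor of the set. Its level was 117.5 CPM [110.6 to 124.7] in HFD WT, 35.5 CPM [32.6 to 38.7] in HFD CKO, 123.6 CPM [114.9 to 132.8] in ND WT and 109.6 CPM [101.9 to 117.6] in ND CKO. Only HFD CKO was low, and its interval did not overlap that of any other library. The ratio of CKO to WT was 0.302 [0.272 to 0.336] under HFD, where the longest genes had a median of 0.647 and 1.46% of these 1575 genes had a lower ratio. HFD over ND in CKO was 0.324 [0.290 to 0.363], where the longest genes had a median of 0.413 and 29.3% had a lower ratio, and relative to that median Pparg was at 0.801, within 1.5 times. Under ND the ratio of CKO to WT was 0.887 [0.8004 to 0.982]. The share of cells with a Pparg UMI at 2000 UMIs per cell was 17.1% in HFD WT, 6.28% in HFD CKO, 14.6% in ND WT and 13.9% in ND CKO. Without thinning the shares were 54.0%, 13.1%, 27.2% and 23.9%, highest in HFD WT, the deepest library. HFD CKO and ND CKO, with medians of 3923 and 3939 UMIs per cell, still differed. Cells with 3 or more lymphoid markers, which should hold little Pparg of their own, had a Pparg UMI in 1 of 18, 1 of 22, 2 of 19 and 3 of 17 cells, too few to set a background more closely than 0.141% to 27.3% in HFD WT and 3.80% to 43.4% in ND CKO. Their median depth before thinning was 6062, 2625.5, 2951 and 3586 UMIs.

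The cells that held Pparg differed between diets. Under ND, 284 of 3030 cells in WT (9.37%) and 247 of 3482 in CKO (7.09%) held 3 or more of 8 genes known from non-classical, patrolling monocytes (Ace, Treml4, Cd300e, Spn, Eno3, Adgre4, Pglyrp1 and Itgal), a list chosen after genes of the Pparg cells had been seen. These cells held 51.9% and 47.1% of all Pparg UMIs in their libraries. Pparg was at 685 CPM [618.5 to 756] in them in ND WT and at 727 CPM [653.5 to 806] in ND CKO. Under HFD there were 20 such cells in WT and 17 in CKO, with 2.51% and 2.57% of the Pparg UMIs. With these cells left out, Pparg was at 115.1 CPM in HFD WT, 34.7 in HFD CKO, 65.5 in ND WT and 62.4 in ND CKO. The ratio of HFD to ND in WT then moved from 0.951 [0.865 to 1.05] to 1.76 [1.56 to 1.98], past 1.5 times, and that in CKO from 0.324 [0.290 to 0.363] to 0.556 [0.487 to 0.634]. The ratio of CKO to WT under HFD was 0.302 [0.271 to 0.335] and that under ND was 0.953 [0.824 to 1.10]. Because the list came from genes of Pparg cells, leaving these cells out lowers Pparg under ND partly by its choice. The changed diet ratios are therefore descriptions. Macrophage genes differed in direction in these cells: in ND WT, C1qa was at 151 CPM against 1310 CPM in the remaining cells of that library, and Csf1r was at 667 against 378 CPM.

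Cells with over 10 UMIs of the complement genes C1qa, C1qb and C1qc after thinning, a mark of mature macrophages, numbered 2501, 4929, 703 and 1091 in HFD WT, HFD CKO, ND WT and ND CKO. Within them Pparg was at 81.8, 28.1, 42.7 and 36.7 CPM. In this subset HFD WT was 1.92 times [1.46 to 2.56] as high as ND WT, and HFD CKO was at 0.766 of ND CKO [0.596 to 0.996], where all genes had medians of 0.812 and 0.690. CKO over WT under HFD was 0.344 [0.294 to 0.401] in these cells and 0.317 [0.248 to 0.404] in cells with no C1q UMI. The lower Pparg of the HFD knockout library was therefore seen at both ends of the C1q range.

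**Figure D3:**
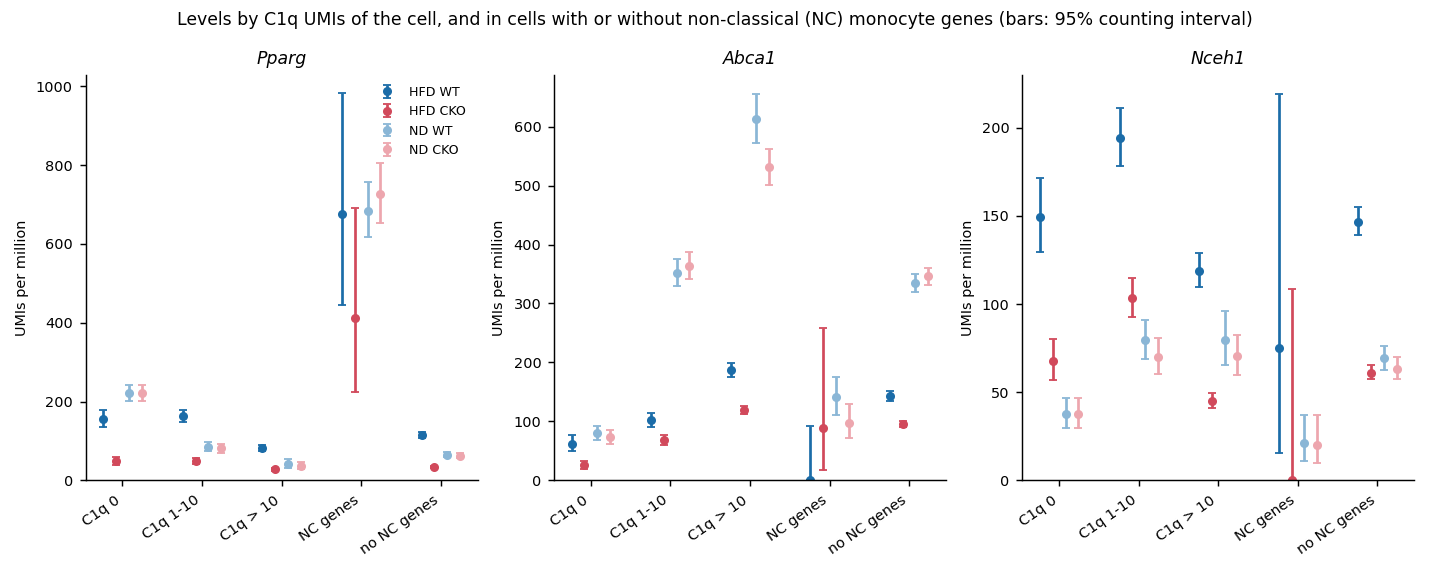
Levels of Pparg, Abca1 and Nceh1 in CPM in cells grouped by their C1q UMIs (0, 1 to 10, over 10) and in cells with or without 3 or more non-classical (NC) monocyte genes. Points are libraries and bars are 95% counting intervals. Pparg stands at 685 and 727 CPM in the NC cells of the 2 ND libraries, and Abca1 is highest in the cells with over 10 C1q UMIs, at 613 and 531 CPM under ND. The NC groups of the HFD libraries hold 20 and 17 cells.

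Nr1h3 (ENSMUSG00000002108, chromosome 2, 91184061 to 91202834, minus strand) encodes LXR alpha, the LXR enriched in macrophages, liver and fat. It was at 33.1 CPM [29.4 to 37.0] in HFD WT, 22.6 [20.3 to 25.1] in HFD CKO, 9.08 [6.84 to 11.8] in ND WT and 8.47 [6.45 to 10.9] in ND CKO. Both HFD libraries were above both ND libraries, without overlap of the intervals. The ratio of HFD to ND was 3.64 [2.73 to 4.95] in WT and 2.67 [2.02 to 3.58] in CKO, and 99.2% and 97.8% of genes in the same span group had a lower ratio. CKO was at 0.684 of WT [0.584 to 0.8003] with HFD, short of 1.5 times. Under ND only 55 and 59 UMIs were counted, and the ratio of CKO to WT was 0.933 [0.635 to 1.37].

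Nr1h2 (ENSMUSG00000060601, chromosome 7, 44549616 to 44553951, minus strand) encodes LXR beta, which is found in most tissues. It was at 36.1 CPM [32.3 to 40.2] in HFD WT, 36.9 [33.9 to 40.1] in HFD CKO, 40.1 [35.2 to 45.5] in ND WT and 36.0 [31.7 to 40.8] in ND CKO. All 4 intervals overlapped. Rxra (ENSMUSG00000015846, chromosome 2, 27676440 to 27762957, plus strand) encodes the common partner of PPARG and the LXRs. It was at 20.2 CPM in HFD WT, 20.7 in HFD CKO, 23.8 in ND WT and 25.6 in ND CKO. Its ratio of CKO to WT under HFD, 1.03 [0.853 to 1.24], was higher than that of 94.8% of genes in the longest span group. The receptors thus differed among themselves between whole libraries. Pparg was low in HFD CKO, Nr1h3 was higher under HFD, where more cells held Trem2, and Nr1h2 and Rxra stayed within 1.5 times in all 4 comparisons. Among cells with over 10 C1q UMIs, Pparg was also high in HFD WT. The same order without the non-classical cells is a description only, since their genes were chosen after those of the Pparg cells had been seen.

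Abca1 (ENSMUSG00000015243, chromosome 4, 53030787 to 53159895, minus strand) exports cholesterol and phospholipid to lipid-poor apolipoprotein A-I and is a textbook LXR target. Its promoter is shown because LXR with RXR is known to bind there at a DR4 element, a direct repeat of AGGTCA spaced by 4 bases. A search of the RefSeq promoter windows of GRCm38.p6 (250 bases before to 50 after a start, both strands) for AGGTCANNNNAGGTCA with up to 3 mismatches found 1 match in the Abca1 window, at chr4:53159947-53159962, 67 to 52 bases before the start. It is printed 5′ to 3′ along the gene's strand with the match, which reads on the other strand, in capitals.

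Abca1 promoter: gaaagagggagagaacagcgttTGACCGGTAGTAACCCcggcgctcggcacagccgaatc

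Such a match is frequent, present in 21.9% of 32851 promoter windows, and 3.02% hold one with up to 2 mismatches. Windows were found for 8 of the 10 members, and Rxra and Pparg also held a match with up to 3 mismatches. These matches describe the letters only.

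Abca1 was at 142.5 CPM [134.9 to 150.4] in HFD WT, 95.1 [90.3 to 100.1] in HFD CKO, 316 [302 to 330.5] in ND WT and 328 [315 to 342] in ND CKO. Both ND libraries were above both HFD libraries, the opposite order to Nr1h3. The ratio of HFD to ND was 0.451 [0.420 to 0.484] in WT and 0.290 [0.271 to 0.309] in CKO. In the longest span group 15.3% and 20.7% had a lower ratio, and relative to the median of that group the ratios were 0.683 and 0.707, no longer past 1.5 times. CKO over WT under HFD was 0.668 [0.619 to 0.720], next to the 1.5-fold limit and close to the median of 0.647 of its span group. Within cells with over 10 C1q UMIs, Abca1 was at 187 CPM in HFD WT, 119 in HFD CKO, 613 in ND WT and 531 in ND CKO, so that HFD was at 0.305 of ND [0.277 to 0.335] in WT, and 5.19% of the longest genes had a lower ratio there. In CKO the same ratio was 0.224 [0.206 to 0.243], with 6.93% of the longest genes lower.

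Abcg1 (ENSMUSG00000024030, chromosome 17, 31057675 to 31117988, plus strand) exports cholesterol to high-density lipoprotein particles and is another LXR target. It was at 84.3 CPM [78.5 to 90.5] in HFD WT, 59.9 [56.1 to 63.9] in HFD CKO, 73.3 [66.6 to 80.4] in ND WT and 71.4 [65.2 to 77.9] in ND CKO. HFD over ND was 1.15 [1.02 to 1.30] in WT and 0.839 [0.752 to 0.938] in CKO. The ratio of CKO to WT was 0.710 [0.645 to 0.783] with HFD and 0.974 [0.855 to 1.11] with ND. Unlike Abca1, it stayed within 1.5 times in all 4 comparisons.

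Lipa (ENSMUSG00000024781, chromosome 19, 34492318 to 34527474, minus strand) encodes lysosomal acid lipase, which splits cholesteryl esters and triglycerides in the lysosome. It was at 326.8 CPM [315.2 to 338.7] in HFD WT, 182.7 [176.0 to 189.6] in HFD CKO, 161.6 [151.6 to 172.0] in ND WT and 142.6 [133.9 to 151.7] in ND CKO. HFD WT was the high library. HFD over ND was 2.02 [1.88 to 2.18] in WT and 1.28 [1.19 to 1.38] in CKO, and the ratio of CKO to WT was 0.559 [0.531 to 0.589] with HFD and 0.883 [0.807 to 0.965] with ND. Of 1575 genes of like span, 4.13% had a lower ratio of CKO to WT under HFD.

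Nceh1 (ENSMUSG00000027698, chromosome 3, 27182965 to 27284608, plus strand) encodes a neutral cholesteryl ester hydrolase outside the lysosome. It was at 146.5 CPM [138.8 to 154.6] in HFD WT, 61.0 [57.2 to 65.1] in HFD CKO, 64.7 [58.4 to 71.4] in ND WT and 60.3 [54.7 to 66.4] in ND CKO. Here too only HFD WT was high, and the intervals of the other 3 overlapped. HFD over ND was 2.27 [2.02 to 2.54] in WT and 1.01 [0.900 to 1.14] in CKO, and CKO over WT under HFD was 0.416 [0.383 to 0.453]. Set against the median of the longest span group, HFD over ND was 3.39 in WT and 2.45 in CKO, because most long genes were lower under HFD, and CKO over WT under HFD was 0.650. In cells with over 10 C1q UMIs, CKO over WT under HFD was 0.378 [0.333 to 0.428] for Nceh1 and 0.544 [0.507 to 0.584] for Lipa.

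Npc2 (ENSMUSG00000021242, chromosome 12, 84754562 to 84773152, minus strand) encodes the soluble lysosomal protein that hands free cholesterol to NPC1. It was at 655.5 CPM [639.0 to 672.3] in HFD WT, 679.9 [666.9 to 693.1] in HFD CKO, 612.9 [593.3 to 632.9] in ND WT and 635.4 [616.8 to 654.4] in ND CKO. The 4 libraries lay within a factor of 1.07 per comparison, and 66.7% to 71.6% of cells held a UMI. Npc1 (ENSMUSG00000024413, chromosome 18, 12189692 to 12236400, minus strand) encodes the membrane protein that passes cholesterol out of the lysosome. It was at 44.0 CPM [39.8 to 48.5] in HFD WT, 42.1 [38.9 to 45.4] in HFD CKO, 57.9 [52.0 to 64.3] in ND WT and 60.6 [55.0 to 66.7] in ND CKO. The ratio of HFD to ND was 0.759 in WT and 0.694 in CKO, where 48.6% and 67.0% of genes of like span were lower. Between whole libraries the 2 carriers of lysosomal cholesterol therefore did not follow Lipa.

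Cells were then grouped by the marker they held: a UMI of Trem2, a receptor of lipid-associated macrophages, of Lyve1, a receptor of resident perivascular macrophages, or of Ccr2, a chemokine receptor of monocyte-derived cells, and of that marker alone after thinning. At full depth many of these cells held another marker: in HFD WT, 61.9% of the Lyve1 cells had a Trem2 UMI, and 57.1% of the Trem2 cells and 50% of the Lyve1 cells had a Ccr2 UMI. After thinning these were 732, 118 and 2004 cells in HFD WT, 742, 472 and 3013 in HFD CKO, 77, 211 and 1546 in ND WT, and 87, 430 and 1638 in ND CKO. Another 16.3% to 29.6% of cells held none of the 3 and 9.90% to 21.5% held more than 1. For the Ccr2 group no other marker of monocyte-derived cells is given here, and 56.6% to 64.6% of all thinned cells held a Ccr2 UMI. The Trem2 and Lyve1 groups each carried another marker of their name. Gpnmb, a gene of lipid-associated macrophages, was at 575, 274, 182 and 121 CPM in Trem2 cells and at 6.36 CPM or less in Lyve1 cells, and Folr2, a resident marker, was at 879 to 1170 CPM in Lyve1 cells and at 80.8 to 220 CPM in Ccr2 cells.

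Nr1h3, Lipa, Nceh1 and Abcg1 were highest in Trem2 cells among the 3 marked groups in all 4 libraries, Abca1 was high in Lyve1 cells, and Nr1h2 and Npc2 stayed within 1.5 times between any 2 of the groups. Pparg was low in Lyve1 cells and within 1.5 times between Trem2 and Ccr2 cells, and the order of Npc1 varied with the library. Rxra was highest in Lyve1 cells of all 4 libraries, from 7, 24, 14 and 36 UMIs. Every interval of its ratio of Trem2 to Lyve1 cells held 1, and the order of its Trem2 and Ccr2 cells varied. Between Trem2 and Lyve1 cells of HFD WT, 5 members were over 1.5 times higher and 3 lower, against 21.1% and 31.8% of all genes. Of these 3, Npc1 turned to 1.22, 1.11 and 1.10 with 1000, 3000 and all UMIs per cell, and Rxra rested on 7 UMIs in Lyve1 cells. In HFD CKO there were 5 and 2, against 12.6% and 32.1%. In ND WT there were 6 and 1, against 27.2% and 27.6%, and in ND CKO 5 and 1, against 23.6% and 23.4%. Between Trem2 and Ccr2 cells, 3 members were higher in HFD WT (9.08% of all genes), 4 in HFD CKO (6.22%), 6 in ND WT (26.9%) and 6 in ND CKO (26.9%), and none was lower (18.9%, 14%, 23.1% and 21.4% of all genes). Between Lyve1 and Ccr2 cells, 3, 1, 2 and 3 members were higher in the same order (23.1%, 21%, 25.4% and 22.1% of all genes) and 4, 3, 2 and 2 were lower (21.4%, 10.8%, 21% and 17.4%). Under ND only 77 and 87 cells were in the Trem2 group.

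Lipa was at 681 CPM [639 to 725] in Trem2 cells of HFD WT, 148 [103 to 206] in Lyve1 cells and 209 [195 to 224] in Ccr2 cells. In HFD CKO it was at 404 [373 to 438], 136 [113 to 161] and 145 [135 to 155], in ND WT at 357 [269 to 465], 185 [146 to 231] and 142 [129 to 156], and in ND CKO at 241 [174 to 326], 151 [126 to 180] and 115 [104 to 128]. Trem2 over Ccr2 cells was 3.25 [2.97 to 3.57] in HFD WT, 2.79 [2.51 to 3.10] in HFD CKO, 2.52 [1.87 to 3.34] in ND WT and 2.09 [1.48 to 2.88] in ND CKO. Trem2 cells were above Ccr2 cells in 4 of 4 libraries, without overlap of the intervals. Nr1h3 was at 88.1 CPM [73.6 to 104.7] in Trem2 cells of HFD WT and at 17.2 CPM [13.4 to 21.8] in Ccr2 cells, and at 49.2 [38.6 to 61.9] and 16.3 [13.2 to 19.8] in HFD CKO. Nceh1 was at 265 CPM [239 to 293] against 102.5 [92.9 to 113.0] in HFD WT, and at 136.8 [118.6 to 157.0] against 49.5 [44.0 to 55.4] in HFD CKO. For both genes Trem2 cells were again the high group in both libraries.

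**Figure D4:**
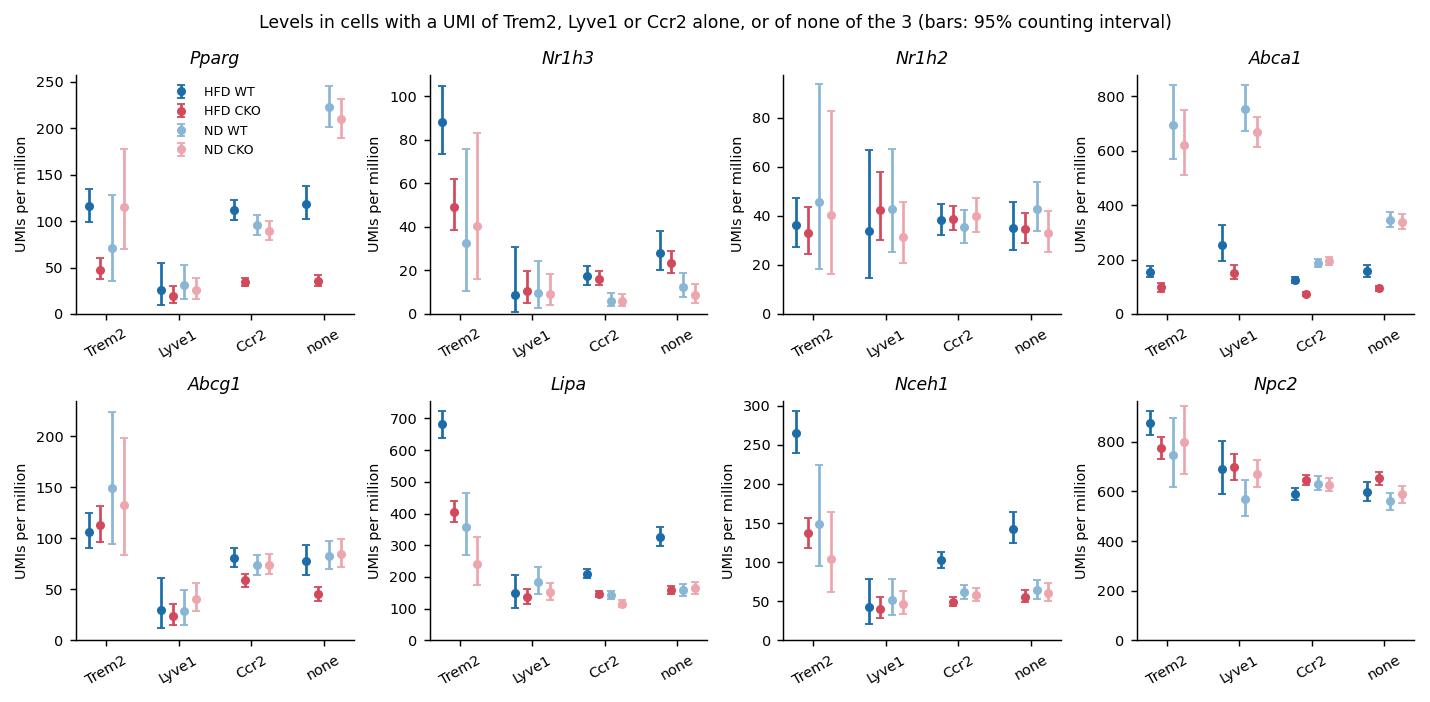
Levels of 8 members in CPM (vertical axes, from 0) in cells with a UMI of Trem2, Lyve1 or Ccr2 alone, or of none of the 3, in the 4 libraries. Bars are 95% counting intervals. Lipa and Nceh1 are highest in Trem2 cells of HFD WT at 681 and 265 CPM, Abca1 is highest in Lyve1 cells of ND WT at 754 CPM, and Pparg is at 30.8 CPM or less in Lyve1 cells of every library.

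Lipa, Nr1h3 and Nceh1 were also higher in cells with more Trem2 UMIs. In HFD WT, cells with 0, 1, 2 and 3 or more Trem2 UMIs held Lipa at 236, 375, 538 and 773 CPM, and in HFD CKO at 147, 204, 375 and 539 CPM. Nr1h3 was at 19.2, 48.3, 63.8 and 81.1 CPM in HFD WT, and at 17.6, 28.6, 56.9 and 52.1 CPM in HFD CKO, where the last 2 intervals overlapped. Nceh1 was at 107.3, 195.3, 217.4 and 283.2 CPM in HFD WT and at 49.8, 83.5, 109.8 and 127.8 CPM in HFD CKO. At the same number of Trem2 UMIs, Lipa and Nceh1 were lower in HFD CKO in all 4 bins. Abcg1 in HFD CKO was at 49.7, 78.8, 97.6 and 134.1 CPM, and in HFD WT at 77.2, 94.96, 97.1 and 104.7 CPM, so the libraries differed in cells without Trem2 and their intervals overlapped from 1 UMI on. Abca1 did not follow Trem2 under HFD, with 140.7, 144.3, 147.8 and 147.5 CPM in WT. Npc2 was at 600, 656, 803 and 987 CPM in HFD WT and at 655, 707, 778 and 924 CPM in HFD CKO.

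**Figure D5:**
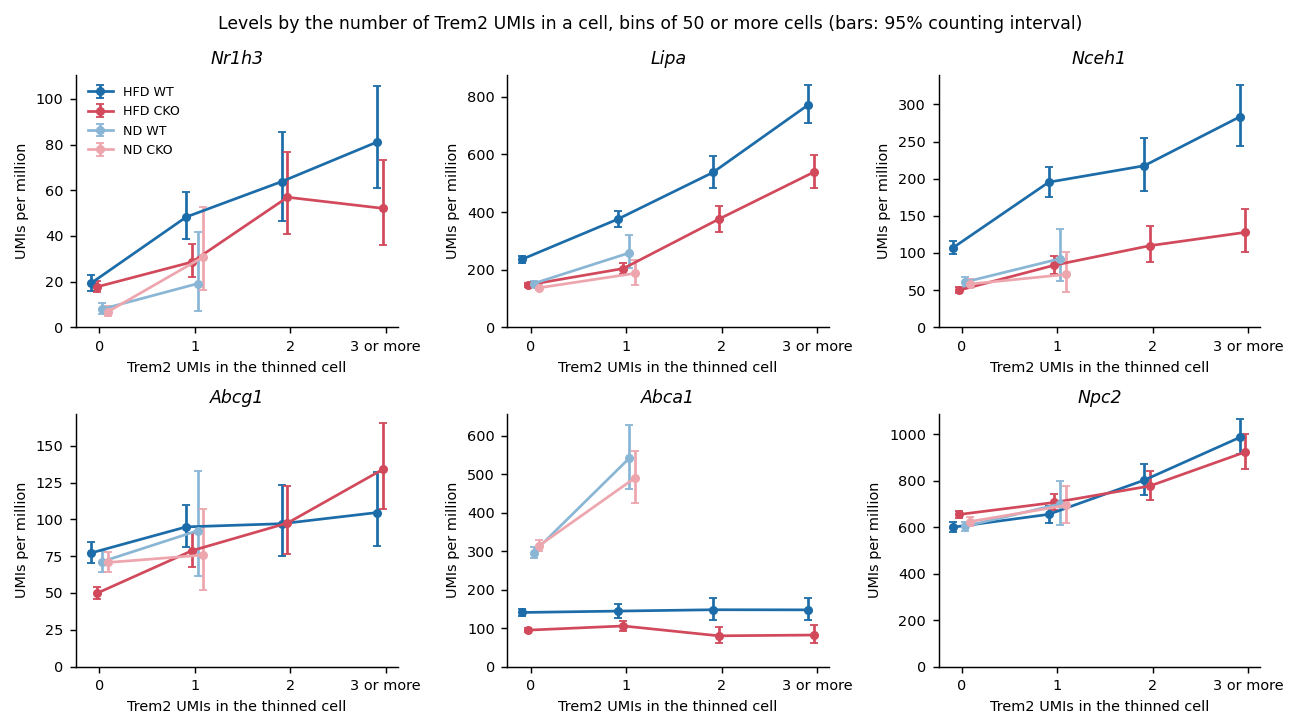
Levels of 6 members in CPM against the number of Trem2 UMIs in a cell thinned to 2000 UMIs, for the 4 libraries, in bins of 50 or more cells. Bars are 95% counting intervals. Lipa climbs from 236 to 773 CPM in HFD WT and from 147 to 539 CPM in HFD CKO, while Abca1 in HFD WT stays between 140.7 and 147.8 CPM.

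Abca1 was at 254 CPM [194 to 327] in Lyve1 cells of HFD WT, 154 [135 to 176] in Trem2 cells and 124 [113 to 135] in Ccr2 cells. In HFD CKO it was at 152 [128 to 178], 97.7 [82.5 to 115] and 72.4 [65.7 to 79.5], in ND WT at 754 [673 to 841], 695 [569 to 840] and 187 [172 to 202], and in ND CKO at 669 [615 to 726], 621 [509 to 749] and 195 [181 to 211]. Lyve1 cells were over 1.5 times above Ccr2 cells in 4 of 4 libraries, with ratios of 2.05 [1.54 to 2.69], 2.09 [1.72 to 2.53], 4.04 [3.51 to 4.64] and 3.42 [3.05 to 3.84]. Under ND Trem2 cells and Lyve1 cells did not differ beyond their intervals. The other exporter was lowest in Lyve1 cells: Abcg1 was at 29.7, 23.3, 28.4 and 40.7 CPM in Lyve1 cells and at 106.6, 113.2, 149.4 and 132.2 CPM in Trem2 cells of HFD WT, HFD CKO, ND WT and ND CKO. In Ccr2 cells it was at 80.8, 58.6, 73.4 and 74.2 CPM.

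Pparg was low in Lyve1 cells, at 25.4 CPM [9.33 to 55.3] in HFD WT, 19.1 [11.3 to 30.1] in HFD CKO, 30.8 [16.4 to 52.7] in ND WT and 25.6 [16.03 to 38.7] in ND CKO. These 4 intervals overlapped, in contrast to the 4 libraries as a whole. In Ccr2 cells it was at 111.8 [101.7 to 122.6], 34.2 [29.7 to 39.2], 95.4 [84.8 to 106.9] and 89.4 [79.5 to 100.3]. In Trem2 cells it was at 116.1 [99.3 to 134.9] in HFD WT and 47.8 [37.4 to 60.3] in HFD CKO, and at 71.4 [35.7 to 128] and 115 [70.2 to 178] in ND WT and ND CKO. CKO over WT under HFD was 0.412 [0.308 to 0.547] within Trem2 cells, 0.306 [0.258 to 0.361] within Ccr2 cells and 0.300 [0.238 to 0.377] within cells of none of the 3 markers. Within Lyve1 cells it was 0.750 [0.285 to 2.31] from 18 and 6 UMIs, which leaves both an equal level and the ratio of the other cells within the interval. Cells with none of the 3 markers held the highest Pparg under ND, at 223 CPM [202 to 246] in WT and 210 CPM [190 to 231] in CKO.

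Rxra was at 29.7 CPM [11.9 to 61.1], 25.4 [16.3 to 37.8], 33.2 [18.1 to 55.7] and 41.9 [29.3 to 57.9] in Lyve1 cells in the order above, and at 17.5, 19.4, 20.1 and 19.8 CPM in Ccr2 cells. Of the 4 ratios of Lyve1 to Ccr2 cells, only that in ND CKO, 2.11 [1.36 to 3.22], had an interval that left out 1. Npc1 in Lyve1 cells was at 63.6, 50.8, 68.7 and 93.0 CPM and in Ccr2 cells at 36.7, 36.3, 51.4 and 51.0 CPM, and its ratio was 1.82 [1.38 to 2.40] in ND CKO. Nr1h2 lay between 31.4 and 45.5 CPM in all 12 groups of marked cells, with overlapping intervals. Npc2 was at 874 CPM [827 to 924] in Trem2 cells of HFD WT against 590 [566 to 614] in Ccr2 cells, a ratio within 1.5 times.

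Levels were also compared between libraries within cells of the same marker, which are not the same cells in other respects, as the levels of Gpnmb show. In Trem2 cells, CKO over WT under HFD was 0.558 [0.413 to 0.750] for Nr1h3, 0.594 [0.536 to 0.658] for Lipa, 0.516 [0.433 to 0.613] for Nceh1, 0.633 [0.510 to 0.783] for Abca1 and 1.06 [0.849 to 1.33] for Abcg1, where all genes had a median of 0.849. In Ccr2 cells it was 0.945 [0.687 to 1.30] for Nr1h3, 0.692 [0.629 to 0.762] for Lipa and 0.482 [0.414 to 0.561] for Nceh1. Abca1 and Nceh1 belong to the longest span group, which had a median of 0.647 between these whole libraries. Genes of like span were not compared inside Trem2 or Ccr2 cells. HFD over ND of Nr1h3 in WT was 2.71 [1.13 to 8.50] in Trem2, 2.80 [1.67 to 4.93] in Ccr2 and 0.894 [0.0809 to 6.24] in Lyve1 cells. In the same order, Lipa in WT was at 1.91 [1.453 to 2.549], 1.48 [1.315 to 1.663] and 0.802 [0.5225 to 1.21]. Nceh1 was at 1.775 [1.165 to 2.833], 1.68 [1.409 to 2.004] and 0.813 [0.3436 to 1.789]. All genes had medians of 0.786, 0.904 and 0.863. The ratios in Lyve1 cells rest on 35 and 78 UMIs of Lipa and 10 and 22 of Nceh1, and their intervals show no direction. In CKO, Nr1h3 was at 1.22 [0.564 to 3.15], 2.80 [1.70 to 4.86] and 1.14 [0.405 to 3.32]. In Lyve1 cells Abca1 under HFD was at 0.337 [0.252 to 0.446] of its ND level in WT and at 0.227 [0.187 to 0.273] in CKO, so the diet difference of Abca1 was seen inside this group as well. All genes had medians of 0.863 and 0.754 there, and genes of like span were not compared inside the group. Cells with fibroblast markers (3 or more) made up 1.03% and 0.784% of the HFD libraries and 0.0660% and 0.144% of the ND libraries, and cells with dendritic markers 0.153% and 0.144% against 2.84% and 2.76%. Leaving out all cells with markers of other classes reversed no called ratio in these library comparisons.

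Genes with the most similar pattern were sought over 16 profiles, the 4 libraries by Trem2, Lyve1, Ccr2 and remaining cells, each centred on its library, among 5147 genes. The profiles share libraries, so the correlations are descriptions. For Pparg they were Sorl1, Ptk2b, Dusp5, Fcgr4 and Sirpb1b (Pearson r from 0.971 to 0.957). For Nr1h3 they were Ctsk, Fth1, Gpnmb, Lhfpl2 and Atp6v0d2 (0.968 to 0.958), and for Lipa Syngr1, Plin2, Slc37a2, Gpnmb and Ctsd (0.982 to 0.957). For Abca1 they were Sash1, C1qc, Zcchc14, Ly96 and C1qa (0.990 to 0.966), and for Abcg1 Rgs1, Il1rn, Lgals3, Fabp5 and Evl (0.968 to 0.957). For Npc2, whose profiles ranged over only 0.559 log2 units, they included Trem2, Card19, Atp6v0c and Hsbp1 (0.887 to 0.851). Trem2 also chose the cells of these profiles, so its pattern is set by the grouping and its place here is no separate finding. The exporters shared none of their 5 genes, and Nr1h3 and Lipa shared Gpnmb.

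Other genes of the same pathways were taken from 5 lists. Listed genes were compared with all genes, not with genes of like span. The span trend is therefore not taken out of their counts and ratios. Of 17 PPARG targets with at least 10 CPM, 2 were over 1.5 times higher and 3 lower in CKO over WT under HFD, with a median ratio of 0.807 against 0.864 for all genes. Among them Plin2, a coat protein of lipid droplets, was at 1070 CPM in HFD WT and 574 in HFD CKO (ratio 0.536), Lpl, lipoprotein lipase, at 1629 and 919 (0.564), and Angptl4, a lipase inhibitor, at 39.0 and 17.6 (0.453). Klf4, a transcription factor, was higher, at 410 and 676 (1.65), as was Tgm2, a transglutaminase (1.66). Cd36, a fatty acid receptor, was at 817 and 682 CPM (0.835) and Fabp4, a fatty acid carrier, at 327 and 411 CPM (1.25), both within 1.5 times. In HFD over ND in WT, 7 of 17 PPARG targets were higher and 3 lower, with a median ratio of 1.43 against 0.846 for all genes. The ratio was 4.82 for Angptl4, which was at 8.09 CPM in ND WT, 4.49 for Fabp5, another fatty acid carrier, 3.70 for Fabp4 and 3.14 for Plin2. In CKO 7 of 18 were higher and 2 lower, with Fabp4 at 7.35, Hilpda, a lipase inhibitor on lipid droplets, at 6.13, and Plin2 at 2.90. For all genes the share higher under HFD was 13.8% in WT and 13.2% in CKO. In the shortest of the 5 span groups it was 31.5% and 40.2%, with median ratios of 1.18 and 1.30. How far the counts of PPARG targets follow gene span was not tested. Under ND, 1 of 17 was higher and 3 lower in CKO over WT, with Plin2 at 0.581 and Fabp4 at 0.632.

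LXR targets other than the members did not share one direction. In HFD over ND, 1 of 14 was over 1.5 times higher and 4 lower in WT, with a median ratio of 0.771 against 0.846 for all genes, and 2 of 16 were higher and 6 lower in CKO (0.778 against 0.714). Apoe, which carries cholesterol out of cells, was at 5447 CPM in HFD WT, 4612 in HFD CKO, 2640 in ND WT and 2611 in ND CKO, with HFD over ND at 2.06 and 1.77. Pltp, a phospholipid transfer protein, was at 951, 1065, 661 and 655 CPM. Mylip, a ubiquitin ligase, went with Abca1, at 32.3, 21.2, 92.6 and 95.9 CPM, with HFD over ND at 0.349 and 0.221. In CKO over WT under HFD, 1 of 15 was higher and 4 lower, with a median of 0.847, and under ND 0 of 15 were past 1.5 times.

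Receptor partners and cofactors were lower under HFD in 11 of 22 in WT and 16 of 22 in CKO, with 1 higher in each, and medians of 0.682 and 0.519, where 29.9% and 46.4% of all genes were lower and the medians were 0.846 and 0.714. In CKO over WT under HFD, 8 of 22 were lower and 1 higher (median 0.764, with 21.2% of all genes lower and a median of 0.864), and under ND 0 of 22 were past 1.5 times. In the longest of the 5 span groups, 52.1% of genes were lower under HFD in WT and 89.3% in CKO. For CKO over WT under HFD that share was 57.8%. How far the cofactor counts follow gene span was not tested. Ncoa2, a coactivator of nuclear receptors, was at 93.8 CPM in HFD WT and 36.7 in HFD CKO, and Ncor1, a corepressor, at 156 and 91.8 CPM. Ppard, the PPAR delta receptor, was at 33.3 and 15.3 CPM under HFD and at 71.0 and 73.8 under ND. Cebpb, a transcription factor, was higher in HFD CKO, at 1118 CPM against 644 in HFD WT (ratio 1.74). Of the sterol synthesis genes under SREBP2, 3 of 19 were higher and 7 lower in HFD over ND in WT, and 3 of 21 were higher and 10 lower in CKO, where 13.8% of all genes were higher and 29.9% lower in WT, and 13.2% and 46.4% in CKO.

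Of 28 genes of cholesterol uptake, storage and traffic, 0 were higher and 5 lower in CKO over WT under HFD, with a median of 0.898 against 0.864 for all genes. Osbpl8, an oxysterol-binding protein at membrane contacts, was at 290 CPM in HFD WT and 87.2 in HFD CKO (0.301), and Soat1, which makes cholesteryl esters, at 124 and 72.4 CPM (0.582). Under ND their ratios were 1.12 and 0.943. Psap, a precursor of lysosomal activators, was at 2435 CPM in HFD WT and 2217 in HFD CKO, and Lamp1, a lysosomal membrane protein, at 710 and 699 CPM. In HFD over ND, 2 were higher and 7 lower in WT and 1 higher and 12 lower in CKO, with Tspo, a mitochondrial sterol-binding protein, at 1.73 and 2.38. For all genes 13.8% were higher and 29.9% lower in WT, and 13.2% and 46.4% in CKO.

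At 2000 UMIs a cell held 1 or more UMIs of 2.09 of the 10 members on average in HFD WT, 1.65 in HFD CKO, 1.91 in ND WT and 1.91 in ND CKO. Cells with none of the members made up 8.12%, 12.4%, 8.61% and 7.81%, and cells with 5 or more 3.86%, 1.16%, 2.48% and 1.84%. HFD CKO had the highest share of cells with none and the lowest share with 5 or more. At this depth a single cell cannot be scored for the whole set, and absence of a UMI in a cell does not show absence of the RNA.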

How the data were processed

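The deposited matrices held UMI counts per gene and cell barcode, written by Cell Ranger 7.0.0 per the file headers; the build, GRCm38, comes from the submitters' processing notes, and the use of intron reads, strand and overlapping genes in counting is not given in the sources at hand, so reads of an overlapping or antisense gene could be counted with a member. Gene spans and positions came from GENCODE M21 (32158 of 32285 identifiers, 99.6%, matched) and promoters from RefSeq windows of GRCm38.p6. The members and all lists were chosen with earlier results of these data known.

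Kept cells were thinned without replacement to 2000 UMIs and summed by library, or by library and marker (Python 3.11.15, numpy 2.4.6, scipy 1.17.1). With 1 library per group no edgeR or other test across genes was run; edgeR 4.0.16 served only for TMM scaling as an alternative. Doublets were not removed: Scrublet in scanpy 1.11.5 called 3, 0, 0 and 0 cells by its own threshold, which shows that the caller did not work here, so removing its highest scores at 0.8% per 1000 cells was tried as an alternative. Ratios, intervals and calls were tested on simulated cells. Named genes were all members, Prdm1, the 3 markers, the 5 genes most like each of 6 members by log2(CPM + 10), and from each list the 3 of highest mean level and, in each comparison, the 2 highest and 2 lowest ratios at 20 CPM or more, of which those in the text are a part. Sums without non-classical monocyte cells and by C1q UMIs were added after the data had been seen. Results for 2 of these genes are not reported here.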

Additional observations from a re-analysis of the deposited data

Results flagged for a closer look

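Abcg1 moved in opposite directions with diet in the 2 genotypes: HFD over ND was 1.15 in WT and 0.839 in CKO, and both counting intervals left out 1. The directions were no longer opposite in cells with over 10 C1q UMIs (1.43 and 1.10), relative to genes of like span (1.49 and 1.40), under TMM scaling (1.36 and 1.19), without thinning (1.32 and 1.01) or with equal weights for the marker groups (0.884 and 0.724). Without the non-classical monocyte cells the ratio in CKO was 0.946 [0.841 to 1.07]. The difference between the genotypes was not tested, since each group is 1 library. Both ratios stayed within 1.5 times, and both were above the medians of genes of like span, 0.772 and 0.601.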

How the results depend on the processing

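No paired analysis was possible because each group is 1 library. Of 64 recomputed counts of members past 1.5 times between libraries, 61 stayed within 1.5 times of the count given, and of 96 between marked cells 95 did. In HFD over ND in CKO, TMM and median of ratios scaling gave 5 members in place of 3, with Lipa (1.82 and 1.81) and Npc2 (1.52 and 1.51) added. TMM moved the median log2 ratio of all genes from -0.21 to 0.03 in CKO over WT under HFD, from -0.24 to 0.01 in HFD over ND in WT and from -0.49 to 0.04 in CKO. Cells with over 10 C1q UMIs gave 6 members in CKO over WT under HFD, with Nr1h3, Abca1 and Abcg1 added, where 20.6% of all genes were lower and 5.46% higher. At least 2 UMIs of the marker gave 7 members in place of 4 for Lyve1 over Ccr2 cells in ND WT. Over the alternatives other than the C1q and monocyte subsets, CKO over WT under HFD ranged from 0.299 to 0.476 for Pparg, 0.535 to 0.662 for Lipa and 0.401 to 0.650 for Nceh1. Relative to genes of like span, HFD over ND in CKO was 0.801 for Pparg. In the 118 Lyve1 cells of HFD WT, directions turned for Npc1 against Trem2 cells (1.22 and 1.11 at 1000 and 3000 UMIs, 1.10 from all UMIs) and for Nr1h3 against Ccr2 cells (1.79 at 2 marker UMIs, 2.91 at 1000 UMIs, 1.07 in a second draw). Rxra in Trem2 over Lyve1 cells of ND CKO turned to 1.22 at 1000 UMIs. Of 40 pairs of member and library comparison, 9 differed by over 1.5 times in the share of cells with a UMI, and 20 without thinning. The cause of these changes was not tested. Depth limits Nr1h3 under ND and the small marker groups.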

Other observations

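Cells with a UMI of Nr1h3 were led under HFD by genes of lipid-associated macrophages. In HFD WT, 262 such cells held Fabp4 at 1134 CPM against 278 CPM in cells without Nr1h3, Spp1 at 179 against 39.2 and Ctsk at 111 against 23.0. In HFD CKO, 318 such cells held Gpnmb at 153 against 38.0 CPM and also Saa3, an acute-phase gene, at 167 against 28.0 and Arg1, arginase, at 204 against 74.4 CPM. Cells with an Abca1 UMI were led by resident macrophage genes in all 4 libraries: Cd163 was at 224 against 95.9 CPM in HFD WT, and Lyve1 at 231 against 111 CPM in HFD CKO, 242 against 65.7 CPM in ND WT and 364 against 108 CPM in ND CKO. These genes were picked for their high ratios, so the values are descriptions.

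Cells with a Pparg UMI were led by different genes under the 2 diets. In ND WT, 441 such cells held Treml4 at 218 against 23.6 CPM and Itgal at 584 against 103 CPM. In HFD CKO, 481 such cells held Malt1 at 176 against 69.5 CPM, Fabp4 at 790 against 385 CPM and Lpl at 1624 against 872 CPM. Non-classical monocyte genes were not among the 10 leading genes of the Pparg cells of either HFD library. In HFD WT Stap1 (196 against 87.4 CPM) was first.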
